A study of Homo sapiens with 6 samples.

Results

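ATF3 and the AP-1 transcription factors are described here in SW480 cells made to express POU5F1B or green fluorescent protein (GFP). The 10 genes were ATF3, the FOS family (FOS, FOSB, FOSL1, FOSL2), the JUN family (JUN, JUNB, JUND), and the early-response genes EGR1 and IER3. They were found in the count tables by the Ensembl identifier of each symbol, 10 of 63677 identifiers, and all 10 were among the 14286 genes with enough counts to be tested. The genes were chosen by family, with the measured difference of ATF3 in the same comparison already known, so the differences below describe these genes and are not an independent test of them.

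SW480 is an established human colorectal adenocarcinoma line. Cells were transduced with a lentiviral vector holding HA-tagged GFP or HA-tagged POU5F1B behind a doxycycline-inducible promoter, and transduced cells were selected in puromycin. Both groups received 1 µg/mL doxycycline for 72 h, so the drug, the vector backbone and the selection are shared by the GFP controls. Each group had 3 poly-A RNA libraries made with a strand-specific kit, and since the labels do not say whether these came from separate cultures, and the study's general statement that in vitro work was repeated does not name these libraries, a p-value measures the spread between these libraries, which may be technical.

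AP-1 is a dimer of basic leucine zipper (bZIP) proteins, usually 1 from the FOS family with 1 from the JUN family, that binds the DNA element TGANTCA. ATF3 is a related bZIP protein that pairs with JUN proteins and is induced by stress. Most of these genes are transcribed within minutes of a growth signal, through ERK and the other MAP kinases acting on serum response factor, a route that is often active in colorectal cancer cells.

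Promoter sequence is shown for FOS, FOSB, JUN and EGR1. As described below, these 4 genes were more than 2-fold low in GFP replicate 3 and higher with POU5F1B at each replicate number. FOSL2 was also low in GFP replicate 3 but not higher at each replicate number, and its sequence is not shown. Each line is the 150 bases before the annotated start in RefSeq (build GRCh38.p14), read 5′ to 3′ on the strand of the gene, at chr14:75278678-75278827 (plus strand) for FOS, chr19:45467846-45467995 (plus) for FOSB, chr1:58784048-58784197 (minus) for JUN and chr5:138465329-138465478 (plus) for EGR1. Capitals mark TGACG or its reverse complement CGTCA, the core of the element bound by CREB and ATF proteins, and, in EGR1, the CArG box bound by serum response factor.
FOS: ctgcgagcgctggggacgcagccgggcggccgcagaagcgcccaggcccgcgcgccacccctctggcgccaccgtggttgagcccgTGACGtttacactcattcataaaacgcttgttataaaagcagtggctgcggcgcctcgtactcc
FOSB: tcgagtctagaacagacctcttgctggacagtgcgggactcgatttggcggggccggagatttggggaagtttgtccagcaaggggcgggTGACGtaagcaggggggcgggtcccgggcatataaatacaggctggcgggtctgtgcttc
JUN: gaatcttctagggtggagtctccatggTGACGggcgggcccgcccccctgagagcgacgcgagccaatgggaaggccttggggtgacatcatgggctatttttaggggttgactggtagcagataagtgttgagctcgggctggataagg
EGR1: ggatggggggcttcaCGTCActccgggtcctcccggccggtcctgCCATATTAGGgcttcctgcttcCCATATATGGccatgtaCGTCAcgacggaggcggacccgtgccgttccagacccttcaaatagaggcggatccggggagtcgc

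Both strands of the 250 bases before each start were searched for the AP-1 element TGANTCA, for the CArG box, for the core TGACG and for the full CREB and ATF element TGACGTCA, which holds the core on each strand. Of the 10 genes, 8 had an entry in the promoter table (ATF3 with 2 starts), and FOSL1 and IER3 had none. TGACG was present in 7 of these 8 genes (FOS, FOSB, FOSL2, JUN, JUNB, JUND and EGR1) and in neither ATF3 window, against 21.2% of all 35116 windows of the same length. The ATF3 windows cover only the 2 starts in the promoter table. Any other start of ATF3 was not searched, so these windows do not show that the gene lacks the core. In FOS it lay 64 to 60 bases before the start, in FOSB 60 to 56 and in JUN 123 to 119. The full TGACGTCA was found only in JUND, 200 to 193 bases before its start, and in 1.65% of all windows. Within these 250 bases EGR1 alone held CArG boxes, at 105 to 96 and at 83 to 74 bases before the start. Of all windows, 1.16% held at least 1. Bases farther upstream were not searched for any gene. TGANTCA was in none of the 9 windows and in 6.57% of all windows. Only exact matches were counted, so a near form such as TGACATCA, present in the JUN window and in an ATF3 window, was not. These matches describe letters in a window and do not show binding.

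The libraries held between 10767947 and 12787637 counts. Levels are in CPM, here the count scaled to the TMM-adjusted depth of its library, and 3 counts corresponded to 0.235 to 0.279 CPM. POU5F1B, the transgene, had 6, 5 and 1 counts in GFP replicates 1, 2 and 3 and 15027, 11393 and 1458 counts in POU5F1B replicates 1, 2 and 3, so every library matched its label, and POU5F1B replicate 3 carried far less of it than the other two. POU5F1B is a close copy of POU5F1, with which it can share reads, so its low counts are uncertain. Both replicate 3 libraries lay apart from replicates 1 and 2. The chi-square between replicates, per degree of freedom, was 4.21 for GFP replicates 1 and 2 against 89.5 and 78.7 for either with replicate 3, and it was 5.38 for POU5F1B replicates 1 and 2 against 17.5 and 20.9. Values are therefore given with all 6 libraries and with replicates 1 and 2 only. Of 8 colorectal epithelial markers, 7 had at least 10 counts in every library, with a summed level of 6365 to 9579 CPM in the GFP group and 7908 to 8929 CPM in the POU5F1B group, while CDX1 had at most 2 counts in any library. That sum is mostly KRT8 and KRT18, and single markers differed between the groups. CDH1 was at 33.7, 30.2 and 72.7 CPM in GFP replicates 1, 2 and 3 and at 98.3 CPM or more in every POU5F1B library (log2 1.71 ± 0.36). With replicates 1 and 2 only, CDH1 (2.33), EPCAM (1.87) and VIL1 (1.16) were past the threshold and higher. CDX2, an epithelial marker too, went the other way (-0.58, adjusted p = 0.0333, voom) without passing it. COL1A1 (-4.39) and PDGFRB (-1.80) were past the threshold and lower. In that fit 3.21% of all tested genes were called higher and 5.15% lower. Between the replicate 3 libraries the log2 difference stayed above 0 for CDH1 (0.43) and below 0 for COL1A1 (-0.82). Its sign turned for EPCAM (-1.04), VIL1 (-0.92), CDX2 (0.16) and PDGFRB (0.78). Of 10 markers of other cell types, 9 were measured and 3 (COL1A1, PDGFRB and VWF) had at least 10 counts in every library. Their list summed to 179.0, 154.1 and 26.1 CPM in GFP replicates 1, 2 and 3 and to 18.3 to 25.4 CPM in the POU5F1B group, and the part of these differences in the results below was not tested.

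None of the 10 genes passed the threshold of limma voom on all 6 libraries (adjusted p under 0.05 and a fold above 2), and 0% of all tested genes did. The transgene POU5F1B did not pass either, at a log2 difference of 10.73 ± 2.78 (adjusted p = 0.252, voom). A lack of calls in this fit is therefore not evidence that a gene did not differ. The lowest adjusted p among them was 0.184 and the highest 0.867. At an unadjusted p under 0.05, 4 of the 10 (ATF3, FOSB, EGR1 and IER3) were higher in POU5F1B cells and none lower, against 6.07% of all tested genes higher, 5.82% lower and 11.9% in either direction. The edgeR quasi-likelihood test called 0 of the 10, and the DESeq2 Wald test called ATF3 alone, against 1.62% of all tested genes. With replicates 1 and 2 only, voom called ATF3 and FOSL1, both higher, against 8.36% of all tested genes in either direction, 3.21% higher and 5.15% lower, and with sample quality weights it called the same 2 against 7.54%. In the fit to replicates 1 and 2, 7 of the 10 (all but FOS, FOSL2 and JUND) were higher at an adjusted p under 0.05 (voom) whatever their fold, against 14.1% of all tested genes. The median log2 fold change of the 10 was 0.75, beside -0.02 over all tested genes, and with replicates 1 and 2 only it was 0.63 beside -0.01. The difference was above 0 for 9 of the 10 (46.9% of all tested genes), and for 8 of the 10 with replicates 1 and 2 only (49.5%). In bulk RNA, fewer cells with a transcript and less of it per cell cannot be told apart.

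**Figure D1:**
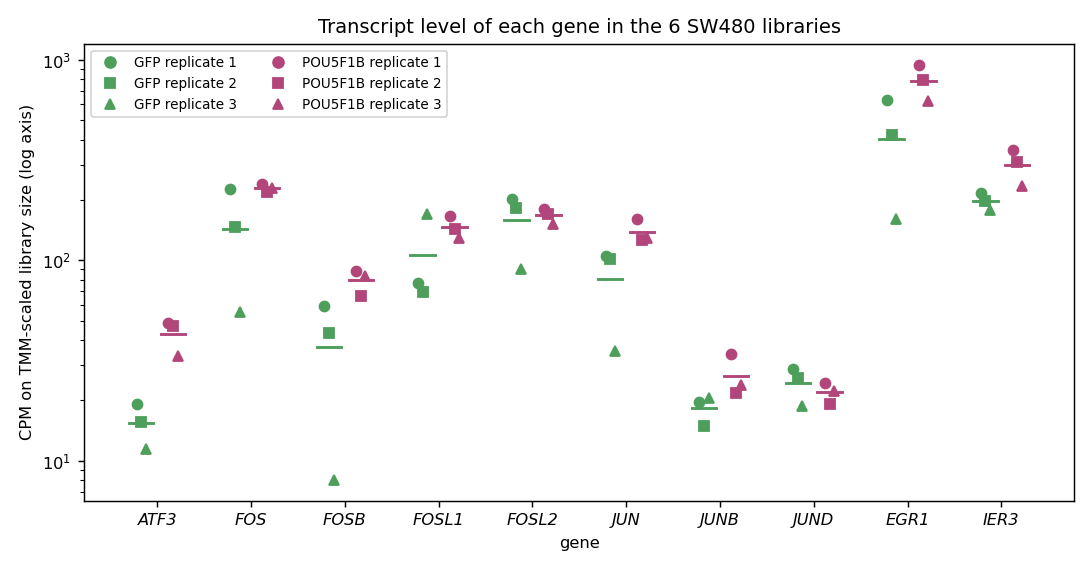
Level of each gene in CPM (vertical log axis) in the 3 GFP libraries (green) and the 3 POU5F1B libraries (purple), where shapes mark the replicate number and short lines the group mean. The 6 points of ATF3 fall into separate groups, 11.4 to 19.1 CPM against 33.5 to 48.8 CPM, whereas GFP replicate 3 (green triangle) sits far below the other GFP libraries for FOS, FOSB, FOSL2, JUN and EGR1 and above them for FOSL1.

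ATF3 (ENSG00000162772; GRCh37 chromosome 1, 212738676 to 212794119, plus strand) was higher in every POU5F1B library. Its counts were 227, 204 and 131 in GFP replicates 1, 2 and 3, and 621, 507 and 402 in POU5F1B replicates 1, 2 and 3. In CPM this was 19.1, 15.5 and 11.4 against 48.8, 47.0 and 33.5. The lowest POU5F1B library stood above the highest GFP library, and in both groups replicate 3 was the lowest. The mean was 15.4 ± 3.87 CPM (SD, n = 3) for GFP and 43.1 ± 8.39 CPM (SD, n = 3) for POU5F1B, a ratio of 2.81. On the log2 scale the difference was 1.49 ± 0.25 (SE, voom). It was 1.47 ± 0.14 with replicates 1 and 2 only, and per replicate number it was 1.34, 1.59 and 1.54. ATF3 was thus as far apart in the third pair, where the transgene was lowest and GFP replicate 3 stood apart, as in the other two. The replicate numbers did not meet the rule for pairing given at the end. Here and below, such pairs therefore match libraries by number only.

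FOS proteins do not dimerise with one another and need a JUN partner to form AP-1. FOS (ENSG00000170345; chromosome 14, 75745529 to 75748933, plus strand), the founding member, was measured at 228, 147 and 55.3 CPM in GFP replicates 1, 2 and 3. The POU5F1B libraries lay close together at 242, 219 and 230.1 CPM. GFP replicate 1 reached the POU5F1B range, so the groups overlapped, and GFP replicate 3 was 3.40-fold below the mean of the other GFP libraries. FOS differed by 0.90 ± 0.46 (log2) with all libraries and 0.32 ± 0.15 with replicates 1 and 2 only. By replicate number it was 0.08, 0.57 and 2.05, so the larger value of the full fit went with the pair of replicate 3.

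FOSB (ENSG00000125740; chromosome 19, 45971253 to 45978437, plus strand), a FOS relative that accumulates under repeated stimulation, had the deepest drop in GFP replicate 3 of the 10 genes. Its levels were 59.2, 43.3 and 8.01 CPM in GFP replicates 1, 2 and 3 and 88.3, 66.6 and 83.4 CPM in POU5F1B replicates 1, 2 and 3. The groups did not overlap, and GFP replicate 3 was 6.40-fold below the mean of the other GFP libraries. The log2 difference of 1.51 ± 0.63 was the largest among the 10 genes in the voom fit to 6 libraries, just above ATF3 (1.49). On the same libraries edgeR and DESeq2 gave FOSB 1.11 and 1.10, below ATF3 (1.49 in both). The voom difference of FOSB was 0.60 ± 0.16 with replicates 1 and 2 only, where ATF3 and FOSL1 were past 1 and FOSB was not.

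FOSL1 (ENSG00000175592; chromosome 11, 65659520 to 65668044, minus strand) encodes FRA-1, which ERK signalling stabilises and which is linked to invasion of carcinoma cells. It was at 77.2, 69.6 and 170.5 CPM in GFP replicates 1, 2 and 3 and at 167.0, 143.4 and 128.8 CPM in POU5F1B replicates 1, 2 and 3. GFP replicate 3 was the highest of all 6 libraries, so the groups overlapped, and the other GFP libraries lay below every POU5F1B library. The log2 difference was 0.59 ± 0.33 with all libraries and 1.07 ± 0.10 with replicates 1 and 2 only. The pair of replicate 3 differed by -0.40, against 1.11 and 1.04 for the other pairs.

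FOSL2 (ENSG00000075426; chromosome 2, 28615315 to 28640184, plus strand), which encodes FRA-2, showed no steady difference. Its levels were 202.6, 182.4 and 91.0 CPM in GFP replicates 1, 2 and 3 and 181.2, 170.2 and 152.0 CPM in POU5F1B replicates 1, 2 and 3. The groups overlapped, with GFP replicate 3 the lowest library. The log2 difference was 0.16 ± 0.30 with all libraries, -0.14 ± 0.09 over replicates 1 and 2, and -0.21 ± 0.10 when GFP replicate 3 alone was left out, so its sign turned with that library.

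Within the FOS family, the composition of the transcripts stood apart in GFP replicate 3. Levels per kilobase of exon (CPM per kb) were summed over FOS, FOSB, FOSL1 and FOSL2, and the share of each was taken. The length was the union of all annotated exons of a gene, 3186 bases for FOS and 1887 for FOSL1. Main transcripts may be shorter, so the shares, and whether a ratio of 2 genes lies above 1, depend on these lengths. FOSL1 made up 27.0%, 31.7% and 74.2% of the sum in GFP replicates 1, 2 and 3. In POU5F1B replicates 1, 2 and 3 it made up 43.1%, 42.1% and 38.6%. FOS itself took 47.3%, 39.7% and 14.2% in GFP replicates 1, 2 and 3, and from 36.9% to 40.9% with POU5F1B. The ratio of FOSL1 to FOS per length was therefore below 1 in GFP replicates 1 and 2 (0.571 and 0.798), 5.21 in GFP replicate 3, and between 0.945 and 1.17 in the POU5F1B libraries. The sum over the family was 129.9 ± 18.9 CPM per kb in GFP and 187.6 ± 15.7 CPM per kb in POU5F1B cells (SD, n = 3 each), and the groups did not overlap in it.

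**Figure D2:**
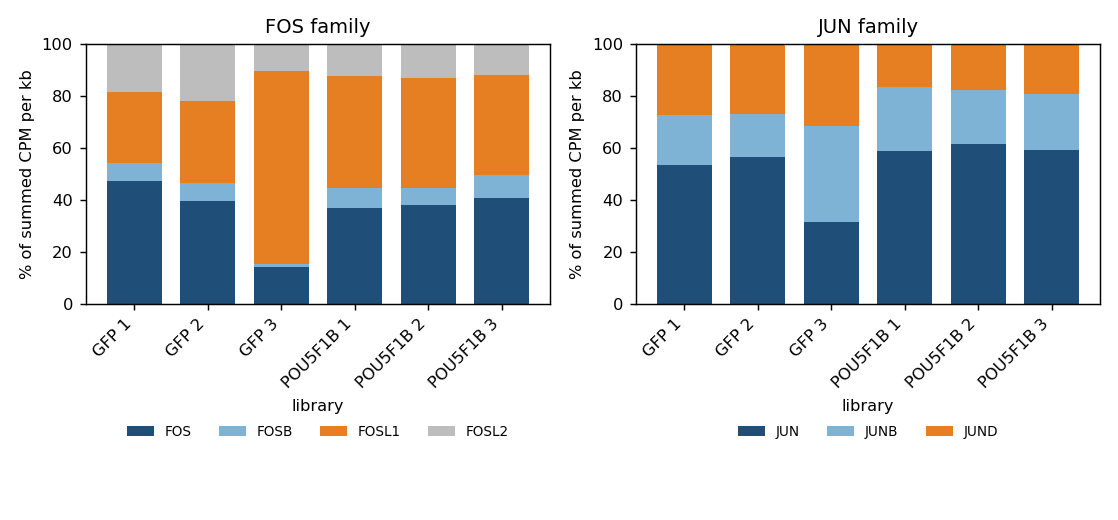
Share of each gene in the summed level per kilobase of exon (vertical axis, % of summed CPM per kb) of the FOS family (left) and the JUN family (right), 1 bar per library. FOSL1 fills 74.2% of the FOS family bar in GFP replicate 3 and 27.0% to 43.1% in the other 5 libraries, and the JUND share of the JUN family is 27.0% to 31.7% in GFP and 16.7% to 19.2% in POU5F1B libraries.

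The JUN family can form AP-1 with FOS proteins, with ATF3, or with itself. JUN (ENSG00000177606; chromosome 1, 59242517 to 59249720, minus strand), the partner that activates most strongly, was at 105.1, 101.4 and 35.1 CPM in GFP replicates 1, 2 and 3. In POU5F1B replicates 1, 2 and 3 it was at 161.7, 126.2 and 128.9 CPM. Every POU5F1B library was above every GFP library, and GFP replicate 3 was 2.94-fold below the mean of the other GFP libraries. JUN differed by 0.93 ± 0.40 (log2) with all libraries and 0.46 ± 0.11 with replicates 1 and 2 only.

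JUNB (ENSG00000171223; chromosome 19, 12902300 to 12904129, plus strand), a weaker activator that can restrain JUN, was measured at 19.6, 14.9 and 20.5 CPM in GFP replicates 1, 2 and 3. Its POU5F1B levels were 34.1, 21.8 and 24.0 CPM. The groups did not overlap, though the gap between GFP replicate 3 and POU5F1B replicate 2 was small. The log2 difference was 0.54 ± 0.23 with all libraries and 0.68 ± 0.21 with replicates 1 and 2 only, and GFP replicate 3 did not stand low for this gene. JUNB overlaps HOOK2 on the opposite strand, and HOOK2 had 179, 187 and 336 counts in GFP replicates 1, 2 and 3 and 347, 219 and 325 in the POU5F1B replicates. The strand setting of the counting was not given in the sources used here, so reads of JUNB and HOOK2 may not be fully separated.

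JUND (ENSG00000130522; chromosome 19, 18390504 to 18392432, minus strand), the JUN gene that is expressed steadily in resting cells, was the only member with a lower mean in POU5F1B cells. It was at 28.6, 25.8 and 18.7 CPM in GFP replicates 1, 2 and 3 and at 24.4, 19.2 and 22.2 CPM in POU5F1B replicates 1, 2 and 3. The groups overlapped, and the log2 difference was -0.13 ± 0.21, or -0.33 ± 0.15 with replicates 1 and 2 only. As a share of the summed JUN family per length, JUND was 28.6% ± 2.65 in GFP and 17.8% ± 1.26 in POU5F1B cells (SD, n = 3 each), and in this share the groups did not overlap. JUN took 53.2%, 56.5% and 31.6% of the family in GFP replicates 1, 2 and 3, and 58.8% to 61.5% with POU5F1B.

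EGR1 (ENSG00000120738; chromosome 5, 137801168 to 137804992, plus strand) is a zinc finger transcription factor and a standard readout of ERK signalling through serum response factor. Its levels were 628.2, 420.6 and 160.3 CPM in GFP replicates 1, 2 and 3 and 946.9, 791.5 and 625.1 CPM in POU5F1B replicates 1, 2 and 3. GFP replicate 1 was just above POU5F1B replicate 3, so the groups touched, and GFP replicate 3 was 3.27-fold below the mean of the other GFP libraries. EGR1 differed by 1.15 ± 0.46 (log2) with all libraries and 0.75 ± 0.14 with replicates 1 and 2 only. In each pair of replicate numbers POU5F1B was higher, by 0.59, 0.91 and 1.96.

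IER3 (ENSG00000137331; chromosome 6, 30710976 to 30712325, minus strand) encodes a short early-response protein that modulates cell survival and ERK activity. It was at 217.4, 197.6 and 178.7 CPM in GFP replicates 1, 2 and 3 and at 353.7, 309.6 and 236.2 CPM in POU5F1B replicates 1, 2 and 3. No GFP library reached the POU5F1B range. The log2 difference was 0.58 ± 0.17 with all libraries and 0.67 ± 0.09 with replicates 1 and 2 only, and GFP replicate 3 deviated little from the other GFP libraries (log2 -0.21). HCG20 and IER3-AS1 overlap IER3 on the opposite strand with at most 17 counts in any library.

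**Figure D3:**
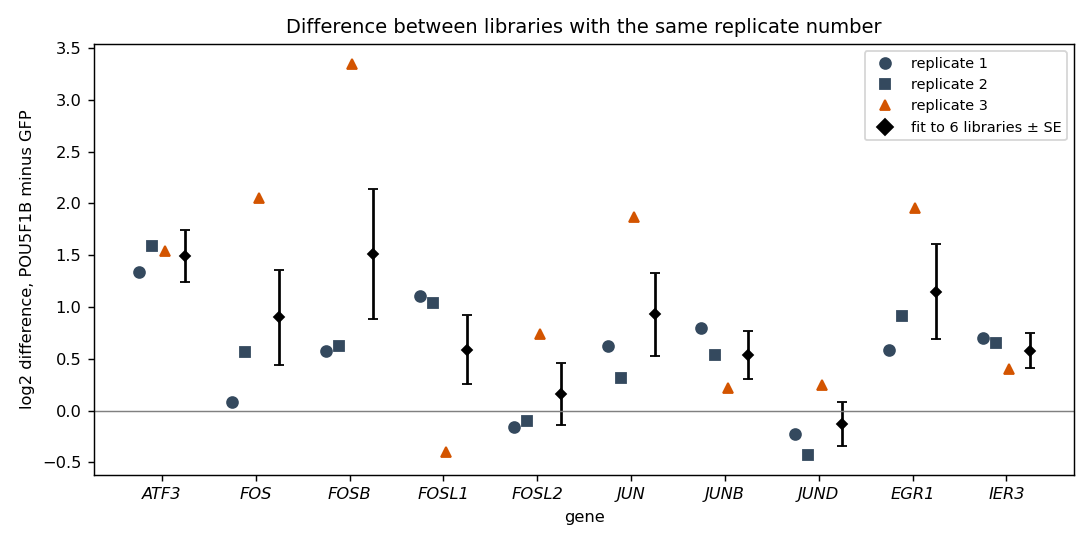
Log2 difference, POU5F1B minus GFP, between libraries with the same replicate number for each gene (circles replicate 1, squares replicate 2, orange triangles replicate 3), with the estimate of the fit to 6 libraries and its SE (black diamonds and bars). The 3 pairs lie together for ATF3 (1.34 to 1.59), whereas the third pair lies far above the others for FOS, FOSB, JUN and EGR1 and below 0 for FOSL1 (-0.40).

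Counted over the 10 genes, 5 (ATF3, FOSB, JUN, JUNB and IER3) were higher in every POU5F1B library than in any GFP library, and none was lower in every one. Over all tested genes the shares were 10.2% higher and 9.24% lower. In all 3 pairs of replicate numbers 7 of the 10 were higher (ATF3, FOS, FOSB, JUN, JUNB, EGR1 and IER3), beside 19.0% of all tested genes. GFP replicate 3 lay more than 2-fold below the mean of GFP replicates 1 and 2 for 5 of the 10 (FOS, FOSB, FOSL2, JUN and EGR1) and more than 2-fold above it for FOSL1, beside 9.65% and 12.3% of all tested genes. POU5F1B replicate 3 was within 2-fold of replicates 1 and 2 for all 10, although the transgene itself was not, and 2.09% of all tested genes lay more than 2-fold below and 3.69% above. In the same GFP library the mitochondrial share of counts was 8.62%, against 6.95% to 7.49% in the other 5, and EPCAM, CDH1 and VIL1 were more than 2-fold higher and COL1A1, PDGFRB and VWF more than 2-fold lower than in GFP replicates 1 and 2. The part of these in the values of GFP replicate 3 was not tested.

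The genes also differed in how closely they ran together over the 6 libraries. Each gene was centred on its mean log2 CPM, and the root mean square distance between profiles was taken for the 45 pairs of genes. FOS and JUN were closest (0.195), followed by FOS and EGR1 (0.205), JUN and EGR1 (0.222), JUNB and IER3 (0.242) and FOSL2 and JUND (0.258). ATF3 lay farther from its nearest member, EGR1 (0.413), and FOSB and FOSL1 were the farthest apart of all (1.38). All these distances rest on the same 6 libraries, GFP replicate 3 among them. Among the 13840 other genes with a mean of at least 1 CPM, the profiles closest to ATF3 were those of MT1A (0.0860), NOD2 (0.119), TGFBI (0.133), PHLDA3 (0.151) and ENSG00000225339 (0.158), which had no symbol. They were chosen for their likeness to ATF3 in these libraries, so their difference between the groups follows from that choice. TGFBI, a secreted matrix protein, was at 100.9, 89.9 and 80.1 CPM in GFP replicates 1, 2 and 3 and at 310.6, 310.3 and 211.3 CPM in POU5F1B replicates 1, 2 and 3. NOD2, a sensor of bacterial cell wall, ran from 6.87 to 9.44 CPM in GFP and from 17.2 to 23.5 CPM in POU5F1B libraries. MT1A belongs to the metallothioneins, whose near-identical copies make its count uncertain.

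By group mean per length, IER3 and EGR1 were the most abundant of the 10 transcripts in both groups and ATF3 the least. Single libraries could differ, as in GFP replicate 3, where FOSB (1.44 CPM per kb) was below ATF3 (2.85). The length is the union of all annotated exons, so a gene whose main transcript is shorter than that union is placed too low. The order therefore depends on these lengths. In GFP cells the order ran from IER3 (146.6 ± 14.3 CPM per kb, SD, n = 3) and EGR1 (128.5 ± 74.7) through FOSL1 and FOS to JUN, FOSL2, JUND, JUNB, FOSB and ATF3 (3.84 ± 0.967), and the ranges of every pair of neighbours overlapped. In POU5F1B cells EGR1 led (251.2 ± 51.3 CPM per kb), with IER3 within its range (222.1 ± 43.96). FOSL1 (77.6 ± 10.2) and FOS (72.3 ± 3.59) followed, lower than IER3 in every library, and then JUN (38.3 ± 5.45) and FOSL2 (23.4 ± 2.06), each below the range of the gene before it. JUNB, FOSB, JUND and ATF3 came last, between 14.5 and 10.8 CPM per kb on average, and neighbours among them overlapped.

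Other genes of the pathway were counted in 6 lists of 123 genes, of which 110 were tested. With all 6 libraries voom called 0 of them, as did the edgeR quasi-likelihood test, and DESeq2 called 2, both higher, with KLF2 among them. At an unadjusted p under 0.05, 20 of the 110 were higher and 3 lower, beside 6.07% and 5.82% of all tested genes. In the fit to replicates 1 and 2, 10 were called higher and 4 lower, beside 3.21% and 5.15% of all tested genes. The median log2 fold change over the lists was 0.15, and 0.20 with replicates 1 and 2 only. In each list, genes among the 3 with the smallest unadjusted p are named below, with adjusted p (voom) between 0.184 and 0.429.

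The list of 30 other early-response genes, all tested, had the highest median, 0.42 in both fits, and 26 of the 30 had a log2 difference above 0, beside 46.9% of all tested genes. Of the 30, 8 were higher in every POU5F1B library and none lower in every one, beside 10.2% and 9.24% of all tested genes. KLF2, a zinc finger factor, was at 4.38, 2.90 and 2.26 CPM in GFP replicates 1, 2 and 3 and at 13.4, 12.5 and 9.74 CPM in POU5F1B replicates 1, 2 and 3, a log2 difference of 1.93 ± 0.29. EGR3, a relative of EGR1, was at 12.7 to 24.4 CPM in GFP and 31.6 to 49.0 CPM in POU5F1B libraries (1.07 ± 0.29). RHOB, a small GTPase, was at 189.3 to 278.3 CPM in GFP and 387.2 to 462.1 CPM in POU5F1B libraries (0.80 ± 0.17). None of these 3 overlapped between groups. With replicates 1 and 2 only, EGR4, NR4A2, KLF2 and DUSP2 were called higher and CTGF lower, beside 3.21% and 5.15% of all tested genes. Of these calls, only KLF2 was named by rule and the others after their values were seen. GFP replicate 3 was more than 2-fold below the other GFP libraries for 7 of these 30 genes and above for 5, beside 9.65% and 12.3% of all tested genes.

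The ERK pathway feedback list holds phosphatases and inhibitors of the pathway (DUSP, SPRY and SPRED genes) together with ETV4, ETV5, PHLDA1, EPHA2 and IL1A, and 13 of its 15 genes were tested. Its median was 0.14, and 0.26 with replicates 1 and 2 only. At an unadjusted p under 0.05, 1 of the 13 was higher and 2 lower, beside 6.07% and 5.82% of all tested genes. DUSP5, a nuclear ERK phosphatase, was at 58.4 to 64.2 CPM in GFP and 94.2 to 103.9 CPM in POU5F1B libraries (0.67 ± 0.11), and GFP replicate 3 did not stand apart for it. DUSP4, also a nuclear MAP kinase phosphatase, went the other way. It was at 87.9, 70.0 and 53.2 CPM in GFP replicates 1, 2 and 3 and at 13.2, 9.55 and 46.9 CPM in POU5F1B replicates 1, 2 and 3. The difference was -1.92 ± 0.52 with all libraries and -2.79 ± 0.19 with replicates 1 and 2 only, where it was past the threshold, and in the pair of replicate 3 it was -0.18. EPHA2, an ephrin receptor, differed by -0.38 ± 0.15.

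Among the AP-1 target genes, 15 of 22 were tested, with a median of 0.33, and 0.38 with replicates 1 and 2 only. At an unadjusted p under 0.05, 5 of the 15 were higher and none lower, beside 6.07% and 5.82% of all tested genes. CCND1, which encodes cyclin D1, was at 1309, 1318 and 688.4 CPM in GFP replicates 1, 2 and 3 and at 2269, 2141 and 1526 CPM in POU5F1B replicates 1, 2 and 3 (0.88 ± 0.28). LIF, a cytokine of the IL-6 family, differed by 0.69 ± 0.21. With replicates 1 and 2 only, 2 genes of this list were called higher, beside 3.21% of all tested genes. Of these calls, VEGFA was named after its values were seen.

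The remaining lists had medians between -0.08 and 0.07 with all libraries, and of -0.10, 0.11 and 0.21 for the bZIP partners, the kinases and the stress genes with replicates 1 and 2 only. The bZIP partners of AP-1 (14 of 16 tested) had a median of -0.08, with CEBPB (0.65 ± 0.22), BATF3 (0.80 ± 0.31) and MAFF (0.52 ± 0.23) at the smallest p, and BATF3 had at most 20 counts in any library. With replicates 1 and 2 only, 2 of the 14 were called lower and 0 higher, beside 5.15% and 3.21% of all tested genes. Of these calls, CEBPD was named after its values were seen. The upstream kinases and serum response factors (25 of 27 tested) had a median of 0.01, with MAP3K5 (1.04 ± 0.35), MAPK13 (0.83 ± 0.32) and RPS6KA1 (0.28 ± 0.11) at the smallest p. MAP3K5 and MAPK13, both higher, were the list's calls with replicates 1 and 2 only, beside 3.21% of all tested genes called higher and 5.15% lower. The stress genes (13 of 13 tested), several of which act with ATF3 in the response to unfolded protein, had a median of 0.07. CHAC1 (0.74 ± 0.26) and SESN2 (0.46 ± 0.18) were higher in every POU5F1B library than in any GFP library. HSPA5, the chaperone of the endoplasmic reticulum (-0.23 ± 0.09), and HSPA1B (-0.28 ± 0.15), named after its values were seen, were lower in every one. These 2 higher and 2 lower genes of 13 stand beside 10.2% and 9.24% of all tested genes. With replicates 1 and 2 only, CHAC1 and DDIT4 of this list were called higher, beside 3.21% of all tested genes. DDIT4 was named after its values were seen.

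**Figure D4:**
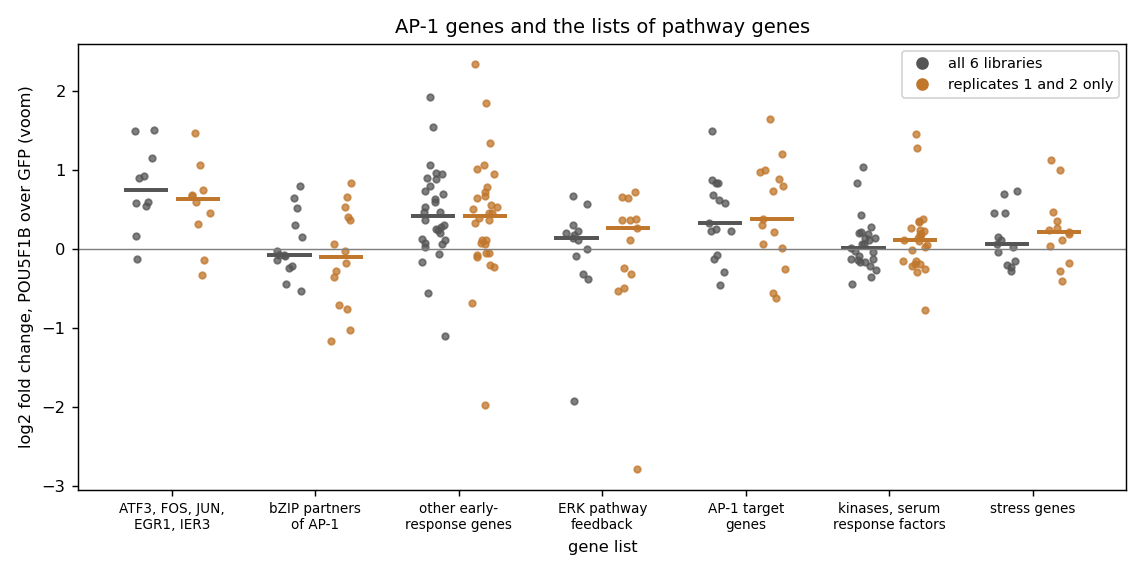
Log2 fold change, POU5F1B over GFP (vertical axis), of every tested gene in the 10 described here and in the 6 lists of pathway genes, from all 6 libraries (grey) and from replicates 1 and 2 only (brown), with each list's median as a line. The 10 genes have the highest median (0.75 and 0.63), the other early-response genes come next (0.42 in both), and the bZIP partners lie at -0.08 and -0.10.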

How the data were processed

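Per the labels, poly-A RNA from SW480 cells was sequenced in 3 GFP and 3 POU5F1B libraries, grouped and numbered by title. The authors deposited 1 table of unnormalized read counts per gene and library, made by mapping to hg19 with HISAT2 and counting uniquely mapped reads with featureCounts on an annotation of genes and transposable elements. The strand setting and annotation release were not given in the sources used here. Depth was 10767947 to 12787637 counts per library, and a floor of 3 counts covers counting error only, because the reads carry no molecular identifiers.

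Low counts were removed by filterByExpr (edgeR 4.0.16), libraries were scaled by TMM, and voom (limma 3.58.1, R 4.3.3) was fitted without a block, the test that the study's methods state, with Benjamini-Hochberg adjustment over all 14286 genes tested. The threshold was an adjusted p under 0.05 and a fold above 2. Log2 CPM used a prior count of 2. The fits were tested on simulated data with the spread of all libraries and 200 genes changed 4-fold. There voom called 173 of the 200 and 6 unchanged genes, and DESeq2 called 192 and 46. No simulated library was set apart as GFP replicate 3 is, so the simulation does not cover that feature. The 10 genes and the lists were chosen with earlier results of these data known. Named genes were the 10, the transgene, the 3 of each list with the smallest unadjusted p, and the 5 profiles closest to ATF3. CYR61, CTGF, MKL1 and MKL2 were matched by their current symbols, and PECAM1 was not analysed here. A few list genes that these rules select are not reported here. Gene positions and exon lengths come from GENCODE on GRCh37, the build called hg19, and promoters from RefSeq on GRCh38.p14. Alternatives were the edgeR quasi-likelihood test, DESeq2 1.42.0, sample quality weights, 3 other scalings, 2 other filters, a replicate block, replicates 1 and 2 only, and leaving out each library.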

Additional observations from a re-analysis of the deposited data

How the results depend on the processing

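The count of the 10 genes past the threshold was 0 with voom on all libraries, 1 with DESeq2 (ATF3), 2 with sample quality weights and 2 with replicates 1 and 2 only (ATF3 and FOSL1 in both), and 0 to 1 when 1 library was left out, the 1 being ATF3 without GFP replicate 3. For the list genes the count was 0, 2 with DESeq2, 13 with quality weights, 14 with replicates 1 and 2 only, and 0 to 9 when 1 library was left out, with 9 without GFP replicate 3. The log2 difference of ATF3 stayed between 1.29 and 1.68 in every alternative, and it passed under 4 of them, namely DESeq2 (1.49), quality weights (1.47), the fit to replicates 1 and 2 (1.47) and the fit that left out GFP replicate 3 (1.29), with adjusted p from 1.25e-05 to 0.927 over the alternatives. FOSL2 changed sign under quality weights (-0.10), in the fit to replicates 1 and 2 (-0.14) and when GFP replicate 3 was left out (-0.21), its range over the left-out libraries being -0.21 to 0.37, and the cause was not tested. For the other named genes, 483 values kept their sign and side of the threshold and 39 gained a call. BATF3, ENSG00000225339 and POU5F1B gave no value with at least 10 counts required in every library. Over all tested genes the count past the threshold was 0 in the main test, 232 with DESeq2, 1077 with quality weights, 1194 with replicates 1 and 2 only, 4 with no filter, 595 without GFP replicate 3 and 5 without POU5F1B replicate 3.

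The replicate numbers did not meet the rule for pairing, since the correlations of deviations between same-numbered libraries were 0.242, 0.0883 and 0.165, and 4 of 6 libraries correlated best with their own number. With the replicate block, 0 of the 10 genes and 0 of the list genes were called, ATF3 differed by 1.49 (adjusted p = 0.1735, voom), and 1 of all tested genes was called.

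With 3 libraries a group and 1 of them apart in each, errors were wide for genes far off in GFP replicate 3, such as FOSB (SE 0.63 with all libraries and 0.16 without either replicate 3). Low genes such as BATF3, with at most 20 counts in a library, are limited by depth.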
